A study of Mus musculus with 13 samples.

Results

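Hippocampal glia that received Nurr1 and Foxa2 were set against cortical glia that received the same pair of genes, each in the presence of amyloid beta. Both cultures came from pups of the ICR strain at postnatal day 1. The hippocampal N+F group was 1 library of hippocampal glia with a lentivirus for Nurr1 and Foxa2 (N+F) and amyloid beta, and the cortical N+F group was 1 library of cortical glia with the same lentivirus and amyloid beta. For reference, 1 library of each region carried a control lentivirus with amyloid beta (the control pair), and 1 of each region a control lentivirus with no amyloid beta (the untreated pair). These 6 libraries are the cultured part of a series of 13, and the 7 tissue libraries were not used. Lines of the count table that share a gene symbol were summed, and levels were expressed as CPM, counts scaled to equal library totals. Of 24542 symbols, 14158 reached 1 CPM in the hippocampal or the cortical N+F library and make up the comparison. Each difference is the log2 ratio of CPM + 1 with hippocampal glia on top, and a gene was counted as different at 1 log2 unit (2-fold). Adding 1 CPM understates the fold of genes at a few CPM, and a gene that was kept through its level in 1 library alone had to differ, so counts over kept genes are descriptions. With 1 library a group, the pair has no replicate error and no test, and a difference between its libraries cannot be told apart from a difference between 2 cultures of any kind. The labels name neither the promoter of the lentivirus nor the number of pups in a culture.

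Nurr1 (gene Nr4a2) is an orphan nuclear receptor, and Foxa2 is a forkhead factor that opens chromatin. In the embryonic midbrain the 2 factors act together to specify and maintain dopamine neurons, where Nurr1 drives genes of dopamine handling such as Slc18a2 and the receptor gene Ret, and Foxa2 acts with Sonic hedgehog in the floor plate. In glia, Nurr1 is known for dampening inflammatory transcription. Cultures of glia from newborn cortex or hippocampus consist mainly of astrocytes, with smaller numbers of microglia, cells of the oligodendrocyte lineage and fibroblasts of the meninges, the membranes that are stripped from the brain at dissection.

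The hippocampal N+F library held 60465788 counts and the cortical N+F library 78273121, and the 6 cultured libraries ranged from 52189025 to 78273121. The 50 most abundant symbols took 10.1% of counts in the hippocampal and 15.2% in the cortical N+F library. Astrocyte markers matched the glial label. All 16 of them were kept, and their summed level was 10869.5 CPM in hippocampal and 14389 CPM in cortical N+F glia, and 17530.1 CPM in hippocampal and 21696 CPM in cortical control glia. Neuron markers summed to 442 CPM in hippocampal and 457 CPM in cortical N+F glia, and to 434 CPM in hippocampal and 443 CPM in cortical control glia. In the untreated pair the same markers summed to 8367 CPM in hippocampal and 9146 CPM in cortical glia, so these libraries, labelled as glia, held many neuronal transcripts. They are used below for the spread of all genes, the delivered genes, the gene copies and alternatives of the region fit. Values of some dopamine and leading genes and of the choroid plexus list are also given. In bulk RNA, fewer cells of a type and less RNA per cell cannot be told apart, and this holds for every marker below.

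Of the 14158 genes, 2455 were at least 2-fold higher in hippocampal than cortical N+F glia (17.3%) and 999 were at least 2-fold lower (7.06%). In the control pair the same rule gave 562 higher (3.97%) and 273 lower (1.93%), and in the untreated pair 343 higher (2.42%) and 212 lower (1.50%). The log2 ratios had an SD across genes of 0.94 in the N+F pair, 0.52 in the control pair and 0.44 in the untreated pair. These genes were kept by their N+F levels alone, and genes counted only in the other pairs were left out. The pairs were therefore not compared on equal terms, and the wider N+F spread is a description. Large differences ran the other way from the total. Only 18 genes were over 10-fold higher in hippocampal N+F glia, while 98 were over 10-fold lower.

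The share of higher genes depended on the scaling. On library totals the median log2 ratio of all genes was 0.33, with quartiles of -0.17 and 0.80, and 71.1% of the 3454 different genes were higher in hippocampal glia. With TMM factors, which moved every log2 ratio by -0.33 before the added 1 CPM, 1428 genes were higher and 1500 lower (48.8% higher). With DESeq2 size factors, which moved it by -0.36, 1342 were higher and 1583 lower (45.9% higher). For that reason list medians below are read against the all-gene median of 0.33, and counts of list members against the 17.3% of all genes that were higher and the 7.06% that were lower. With TMM factors the all-gene median was 0.02, and 1428 genes were higher and 1500 lower of 14145. List values given below with TMM factors are read against these, since list medians moved along with that of all genes. Transcript length moved with the ratio as well. In 5 equal bins from the shortest to the longest transcripts, the median log2 ratio was 0.17, 0.28, 0.35, 0.38 and 0.47 in the N+F pair, while in the control pair these bins had -0.001, -0.02, 0.004, 0.007 and 0.09. The part of transcript length in the differences was not tested.

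**Figure D1:**
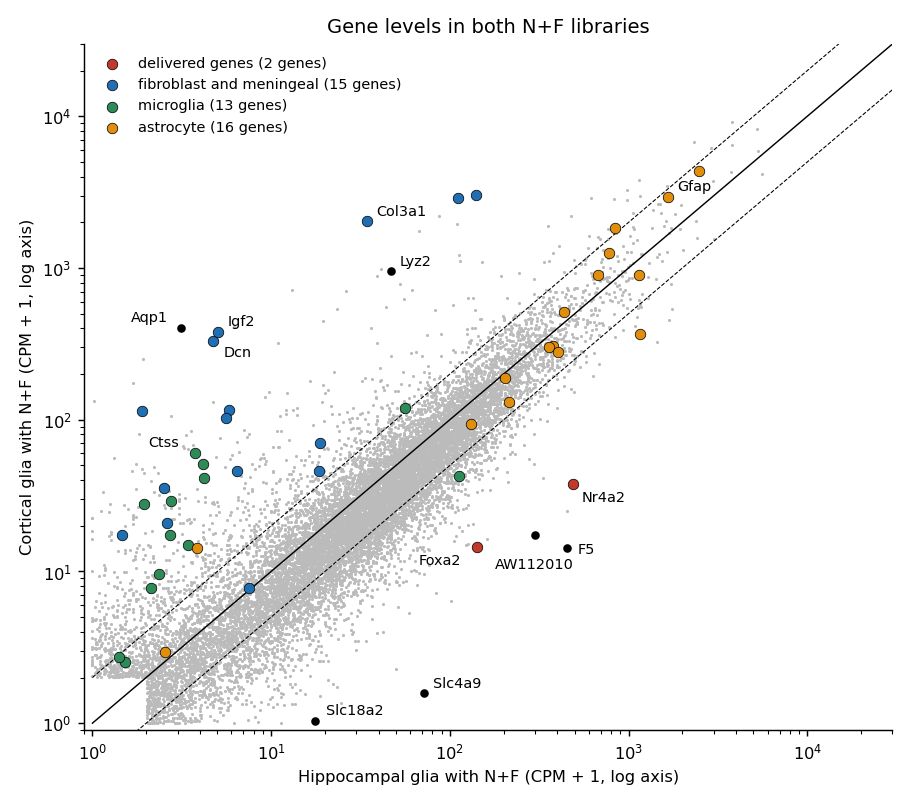
Level of each of the 14158 genes in hippocampal N+F glia (x axis) and cortical N+F glia (y axis), as CPM + 1 on log axes. The solid line marks equal levels and the dashed lines 2-fold differences; Nr4a2 and Foxa2 lie below the lines, fibroblast and meningeal genes far above them, and most astrocyte genes between them.

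Both delivered genes were far more abundant in the hippocampal than the cortical N+F library, Nr4a2 by a CPM ratio of 13.2 and Foxa2 by 10.4. Nr4a2 had 488 CPM in hippocampal and 36.9 CPM in cortical N+F glia, with counting intervals of 482 to 493 CPM in the hippocampal and 35.6 to 38.3 CPM in the cortical library (95% exact Poisson, counting error only). It had 3.35 CPM in hippocampal and 5.14 CPM in cortical control glia, and 58.3 CPM in hippocampal and 18.99 CPM in cortical untreated glia. Foxa2 had 140.3 CPM in hippocampal and 13.5 CPM in cortical N+F glia and 0 counts in the other 4 libraries. By the same intervals a count of 0 allows at most 0.0494 to 0.0707 CPM there. The floor of 3 counts used below is 0.0402 to 0.0575 CPM in these libraries. The log2 ratio was 3.69 for Nr4a2 and 3.28 for Foxa2. Both N+F libraries therefore carried both genes above their control, but at unlike levels. The table lists Nr4a2 on 2 lines and Foxa2 on 3. In the hippocampal N+F library 1 line of Nr4a2 held 28155 of its 29479 counts, and in the cortical N+F library the same line held 2190 of 2890. Nothing in the labels or the file tells vector RNA from the cells' own transcript among these lines.

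The relatives of the delivered genes did not share their pattern. Nr4a1 (Nur77), an early response gene of the same receptor family, was lower in hippocampal N+F glia, with 7.24 CPM in hippocampal and 19.5 CPM in cortical N+F glia (log2 ratio -1.31), while the control pair had the opposite order, with 5.26 CPM in hippocampal and 1.80 CPM in cortical control glia. Nr4a3 had 4.45 CPM in hippocampal and 2.99 CPM in cortical N+F glia, a difference under 2-fold. Foxa1 had 0 counts in both N+F libraries, and Foxa3 had 7 counts in the hippocampal and 15 in the cortical library, which was below 1 CPM.

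Several dopamine neuron genes were also higher in hippocampal N+F glia. Slc18a2, the transporter that loads monoamines into vesicles, had 1000 counts (16.5 CPM) in hippocampal and 3 counts (0.0383 CPM) in cortical N+F glia, and 0 counts in both control libraries. The ratio of its CPM was 432, with a 95% counting interval from 147 to 2096. Ret, the receptor subunit for GDNF family factors, had 26.05 CPM in hippocampal and 8.42 CPM in cortical N+F glia, and 1.06 CPM in hippocampal and 4.41 CPM in cortical control glia. Aldh1a1, an aldehyde dehydrogenase of midbrain dopamine neurons, had 148 CPM in hippocampal and 42.7 CPM in cortical N+F glia, and 13.3 CPM in hippocampal and 39.4 CPM in cortical control glia. Pitx3, a dopamine neuron transcription factor, had 3.04 CPM in hippocampal and 0.537 CPM in cortical N+F glia. For Ret, Aldh1a1 and Pitx3 the hippocampal library was the higher of the N+F pair and the lower of the control pair, with log2 ratios of -1.40, -1.50 and -0.53 in the control pair. The transcription factor gene Lmx1b went the other way, with 0 counts in hippocampal and 137 in cortical N+F glia (1.75 CPM). It was at least 35.3-fold lower against a floor of 3 counts. In the untreated pair Slc18a2 had 125 counts in hippocampal and 18 in cortical glia, the order of the N+F pair. Ret and Aldh1a1 were near equal there, with log2 ratios of -0.08 and -0.02.

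Of 17 midbrain dopamine genes listed, 9 passed 1 CPM. Of these, 4 were higher and 1 was lower, against 17.3% and 7.06% of all genes. Slc18a2 and Pitx3 passed only through the hippocampal and Lmx1b only through the cortical library, so their direction was fixed by passing. The median log2 ratio was 0.66 in the N+F pair and -0.33 in the control pair. Ddc, the decarboxylase of dopamine synthesis, had 0.910 CPM in hippocampal and 1.30 CPM in cortical N+F glia. Th, the rate-limiting enzyme of that synthesis, stayed below 1 CPM at 0.976 CPM in hippocampal and 0.422 CPM in cortical N+F glia. The dopamine transporter gene Slc6a3 had 6 counts in the hippocampal and 15 in the cortical library. So Slc18a2 was the most unequal dopamine gene, while the synthesis enzyme and the uptake transporter were hardly counted in either N+F library.

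Among genes linked to Foxa2 in the floor plate and in gut-derived epithelia, most of those kept were higher in hippocampal N+F glia. Of 27 listed, 7 passed 1 CPM, 6 of them higher and 1 lower (4 and 1 with TMM factors). Of all genes, 17.3% were higher and 7.06% lower. Shh, Epcam and Krt18 passed 1 CPM only in the hippocampal library, so their direction was fixed by passing. The list median was 1.36 in the N+F pair and 0.00 in the control pair. Shh, the signal secreted by the floor plate, had 386 counts (6.38 CPM) in hippocampal and 4 (0.0511 CPM) in cortical N+F glia, and 0.857 CPM in hippocampal and 0.0494 CPM in cortical control glia. The epithelial adhesion gene Epcam had 3.57 CPM in hippocampal and 0.115 CPM in cortical N+F glia and 0 counts in both control libraries. Spon1, which encodes the floor plate protein spondin 1, had 109 CPM in hippocampal and 39.4 CPM in cortical N+F glia, and 20.3 CPM in hippocampal and 44.1 CPM in cortical control glia. Ntn1, the axon guidance cue netrin 1, had 128 CPM in hippocampal and 57.4 CPM in cortical N+F glia. In the control pair Ntn1 was near equal, with a log2 ratio of -0.24. Krt18 had 1.26 CPM in hippocampal and 0.0639 CPM in cortical N+F glia, and Krt19, another keratin of simple epithelia, went the other way, with 1.57 CPM in hippocampal and 4.27 CPM in cortical N+F glia. The remaining 20 genes, including the liver genes Alb and Apoa1, stayed under 1 CPM in both libraries.

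Genes with the largest positive ratios fell into those that were low in both control libraries and those that were low in the cortical N+F library. Slc4a9, an anion exchanger gene, led with 70.5 CPM in hippocampal and 0.575 CPM in cortical N+F glia (log2 ratio 5.50). F5, coagulation factor V, had 449 CPM in hippocampal and 13.2 CPM in cortical N+F glia, and 1.53 CPM in hippocampal and 1.38 CPM in cortical control glia. Nnat, the imprinted gene of neuronatin, had 452 CPM in hippocampal and 24.1 CPM in cortical N+F glia, and 1.54 CPM in hippocampal and 3.94 CPM in cortical control glia. AW112010, a transcript known from activated macrophages, had 298 CPM in hippocampal and 16.4 CPM in cortical N+F glia, and 2.10 CPM in hippocampal and 2.98 CPM in cortical control glia. Akr1b7, an aldo-keto reductase, had 22.2 CPM in hippocampal and 0.728 CPM in cortical N+F glia and 0 counts in both control libraries. Exph5, which encodes a Rab27-binding protein, had 23.7 CPM in hippocampal and 0.358 CPM in cortical N+F glia, and 0.0803 CPM in hippocampal and 0.198 CPM in cortical control glia. In these 6 genes cortical N+F glia were also above cortical control glia, but by far less than hippocampal N+F glia were above hippocampal control glia. In the untreated pair F5 and Nnat were also higher in hippocampal glia, with log2 ratios of 3.01 and 2.08. The order of F5 and Nnat was thus not particular to N+F. Exph5 had the opposite order in the untreated pair, with -2.23. Slc4a9, AW112010 and Akr1b7 were near equal there, with 0.12, -0.11 and 0.06.

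Other leading genes had a different shape across the libraries. Fam212b, the gene of an inhibitor of PAK kinases, had 100.4 CPM in hippocampal and 5.34 CPM in cortical N+F glia, and 85.2 CPM in hippocampal and 80.5 CPM in cortical control glia. Skida1 had 17.8 CPM in hippocampal and 0.511 CPM in cortical N+F glia, and 12.6 CPM in hippocampal and 23.4 CPM in cortical control glia. In Fam212b and Skida1 the cortical N+F library was the low one of 4. Apoo-ps, another leading gene, is a gene copy and is described with the other copies below.

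Promoter sequence of leading genes is shown because both delivered factors bind DNA. The windows are the 250 bases before the RefSeq start of each gene (GRCm38.p6), 5′ to 3′ on the gene's strand, with 2 motifs in capitals where present: AAAGGTCA, the response element that binds Nurr1 as a monomer, and TGTTTAC, a core forkhead motif. Both strands were searched, so the capitals may show the reverse complement.
Akr1b7, chr6:34412112-34412361, plus strand: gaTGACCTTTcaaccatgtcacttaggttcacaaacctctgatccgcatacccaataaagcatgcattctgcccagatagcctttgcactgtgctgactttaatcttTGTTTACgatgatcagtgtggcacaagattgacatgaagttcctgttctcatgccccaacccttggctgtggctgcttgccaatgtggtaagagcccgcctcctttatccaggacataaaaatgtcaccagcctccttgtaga
F5, chr1:164151585-164151834, plus strand: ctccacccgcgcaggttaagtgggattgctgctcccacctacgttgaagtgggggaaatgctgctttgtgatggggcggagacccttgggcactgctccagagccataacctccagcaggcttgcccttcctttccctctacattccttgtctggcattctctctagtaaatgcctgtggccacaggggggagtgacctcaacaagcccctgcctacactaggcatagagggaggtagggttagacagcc
Slc18a2, chr19:59260628-59260877, plus strand: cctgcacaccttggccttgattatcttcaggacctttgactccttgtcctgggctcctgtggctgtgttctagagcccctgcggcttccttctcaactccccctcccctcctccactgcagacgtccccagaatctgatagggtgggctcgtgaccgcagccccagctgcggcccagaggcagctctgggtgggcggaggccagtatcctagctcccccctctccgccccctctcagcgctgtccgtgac
Ccl6, chr11:83593088-83593337, minus strand: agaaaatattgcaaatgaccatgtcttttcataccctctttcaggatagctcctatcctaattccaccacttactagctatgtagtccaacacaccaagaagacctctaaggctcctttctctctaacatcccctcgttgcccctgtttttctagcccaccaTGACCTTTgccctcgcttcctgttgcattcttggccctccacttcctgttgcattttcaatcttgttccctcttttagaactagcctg
Akr1b7 held both motifs, the Nurr1 element on the minus strand 248 bases before the start and the forkhead motif on the plus strand 143 bases before it. F5 and Slc18a2, which were among the most unequal genes, held neither in these windows. Of 11 leading higher genes 7 had a window and 1 held a match, and of 11 leading lower genes 5 had a window and 1 held a match, the chemokine gene Ccl6, with the Nurr1 element on the minus strand 88 bases before the start. Over all RefSeq windows of this length, 1.55% of 27025 genes held the Nurr1 element and 3.54% held the forkhead motif. A match is a stretch of letters, and no binding was measured.

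**Figure D2:**
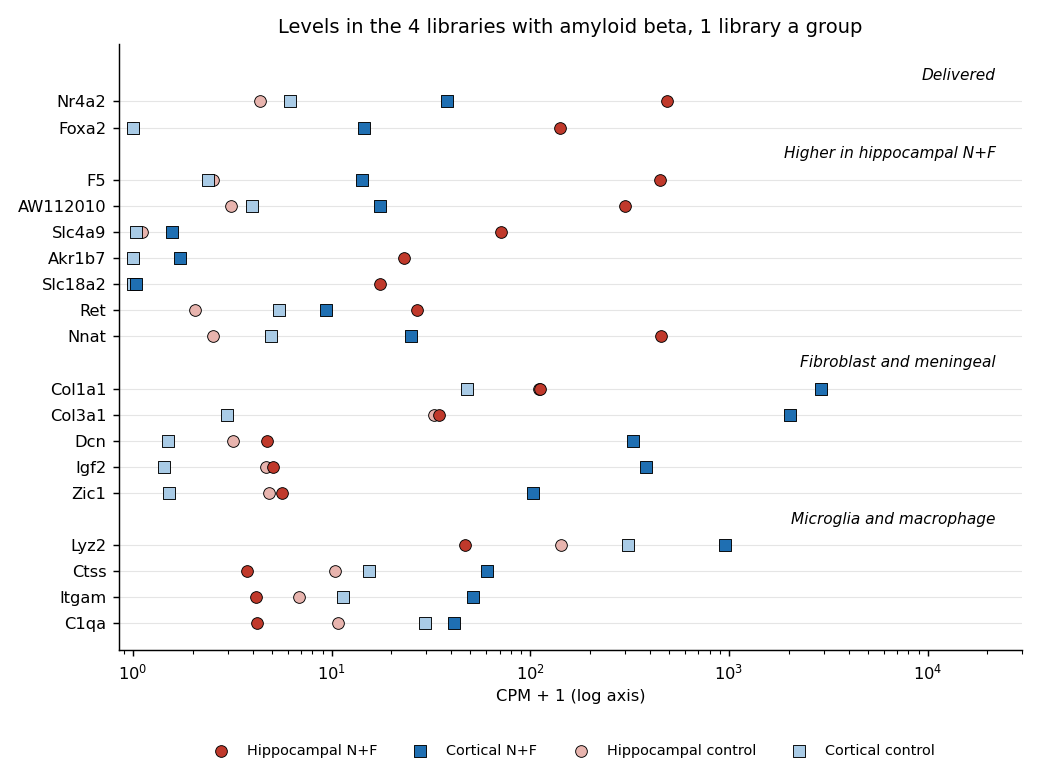
Levels of 18 genes in the 4 libraries with amyloid beta, as CPM + 1 on a log axis, 1 library a group; circles are hippocampal and squares cortical glia, dark for N+F and light for control. Hippocampal N+F glia lie alone at the right for F5, AW112010, Slc4a9 and Akr1b7, and cortical N+F glia lie alone at the right for the fibroblast and meningeal genes.

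The genes most strongly lower in hippocampal N+F glia were those of fibroblasts and the meninges. Of 16 fibroblast and meningeal genes 15 passed 1 CPM, and 14 of them were at least 2-fold lower, against 7.06% of all genes. Their median log2 ratio was -4.20 in the N+F pair and 0.92 in the control pair. The list summed to 352 CPM in hippocampal and 9232 CPM in cortical N+F glia, and to 344 CPM in hippocampal and 168 CPM in cortical control glia. The hippocampal N+F library was thus close to the hippocampal control library, and the cortical N+F library alone was high. None of the 16 genes was at 0 counts in either N+F library.

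Col3a1, a fibrillar collagen of connective tissue, had 33.6 CPM in hippocampal and 2033 CPM in cortical N+F glia (log2 ratio -5.88), and 31.7 CPM in hippocampal and 1.96 CPM in cortical control glia (3.47). Col1a1, the main collagen of fibroblasts, had 111 CPM in hippocampal and 2894 CPM in cortical N+F glia, and 110.2 CPM in hippocampal and 47.03 CPM in cortical control glia. Dcn (decorin), a small proteoglycan that binds collagen, had 3.74 CPM in hippocampal and 329 CPM in cortical N+F glia, and 2.19 CPM in hippocampal and 0.494 CPM in cortical control glia. Lum (lumican), a proteoglycan of the same family, had 0.893 CPM in hippocampal and 113 CPM in cortical N+F glia. In each of these collagen and proteoglycan genes only the cortical N+F library was high. Igf2, the growth factor gene expressed by meninges, had 4.05 CPM in hippocampal and 379.6 CPM in cortical N+F glia, and 3.69 CPM in hippocampal and 0.428 CPM in cortical control glia. H19, the imprinted noncoding RNA next to Igf2, had 12.02 CPM in hippocampal and 719 CPM in cortical N+F glia, and 13.02 CPM in hippocampal and 2.59 CPM in cortical control glia. For Col3a1, Col1a1, Dcn, Igf2 and H19 the order of the regions was the opposite in the control pair, where hippocampal glia were higher by 1.10 to 3.47 log2 units. Zic1, a transcription factor of the meninges and dorsal midline, had 4.60 CPM in hippocampal and 102 CPM in cortical N+F glia, but its exons overlap those of Zic4 on the other strand, and strand use in counting was not given. Twist1 and Foxc2, transcription factors of mesenchyme, had log2 ratios of -3.82 and -3.56. Ptgds, a prostaglandin synthase also made by other brain cells, was the exception, with 6.48 CPM in hippocampal and 6.80 CPM in cortical N+F glia.

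Extracellular matrix genes gave the same order over a longer list. Of 29 kept matrix genes 20 were lower and 0 higher, with a median of -1.54, against 0.78 in the control pair, and their sum was 9519 CPM in hippocampal and 32508 CPM in cortical N+F glia, against 7597 CPM in hippocampal and 7871 CPM in cortical control glia. Lists share members, and the fibrillar collagens Col1a1, Col1a2 and Col3a1 stand in both. Lox, the enzyme that crosslinks collagen and elastin, had 86.3 CPM in hippocampal and 2216 CPM in cortical N+F glia, and 35.3 CPM in hippocampal and 18.5 CPM in cortical control glia. Fn1 (fibronectin) had 2323 CPM in hippocampal and 6774 CPM in cortical N+F glia, and 1172 CPM in hippocampal and 664 CPM in cortical control glia. Fbln2 (fibulin 2), chosen for the gap between the pairs, had 38.4 CPM in hippocampal and 881 CPM in cortical N+F glia, and 45.8 CPM in hippocampal and 5.95 CPM in cortical control glia. Matrix genes that astrocytes make were near equal, Tnc at a log2 ratio of -0.05 and Bcan, the lectican brevican, at 0.28. Of 21 proteases and protease inhibitors 12 were lower and 2 higher (14 and 1 with TMM factors). Mmp2, the gelatinase of fibroblasts, had 25.1 CPM in hippocampal and 701 CPM in cortical N+F glia, and 21.7 CPM in hippocampal and 3.66 CPM in cortical control glia. Mmp9 had 0.496 CPM in hippocampal and 26.4 CPM in cortical N+F glia, and the inhibitor gene Timp1 had 112 CPM in hippocampal and 1215 CPM in cortical N+F glia. Adamts9 and Timp4 were the 2 higher ones, with log2 ratios of 1.76 and 1.22, and exons of Timp4 overlap those of Syn2.

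Endothelial markers were mixed. Of 12 listed, 7 were kept, 2 higher and 4 lower (1 and 4 with TMM factors). The higher ones were Slco1a4, with 81.8 CPM in hippocampal and 34.4 CPM in cortical N+F glia, and Tie1. Tie1 had 2.17 CPM in hippocampal and 0.153 CPM in cortical N+F glia. Tie1 passed 1 CPM only in the hippocampal and Cdh5 only in the cortical library. Cdh5, the endothelial cadherin gene, had 0.744 CPM in hippocampal and 49.9 CPM in cortical N+F glia, and Esam had 2.28 CPM in hippocampal and 29.3 CPM in cortical N+F glia, while both were under 2 CPM in each control library. Cldn5, the tight junction gene of brain endothelium, had 0 counts in both N+F libraries, and Pecam1, Emcn, Ly6c1 and Erg stayed under 1 CPM. Mural genes did not show the cortical excess of the fibroblast genes. Of 9 kept, 0 were higher and 0 lower, and their median of 0.33 was that of all genes. Smooth muscle actin, Acta2, had 1009.8 CPM in hippocampal and 669.5 CPM in cortical N+F glia, and Pdgfrb had 43.1 CPM in hippocampal and 42.2 CPM in cortical N+F glia.

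**Figure D3:**
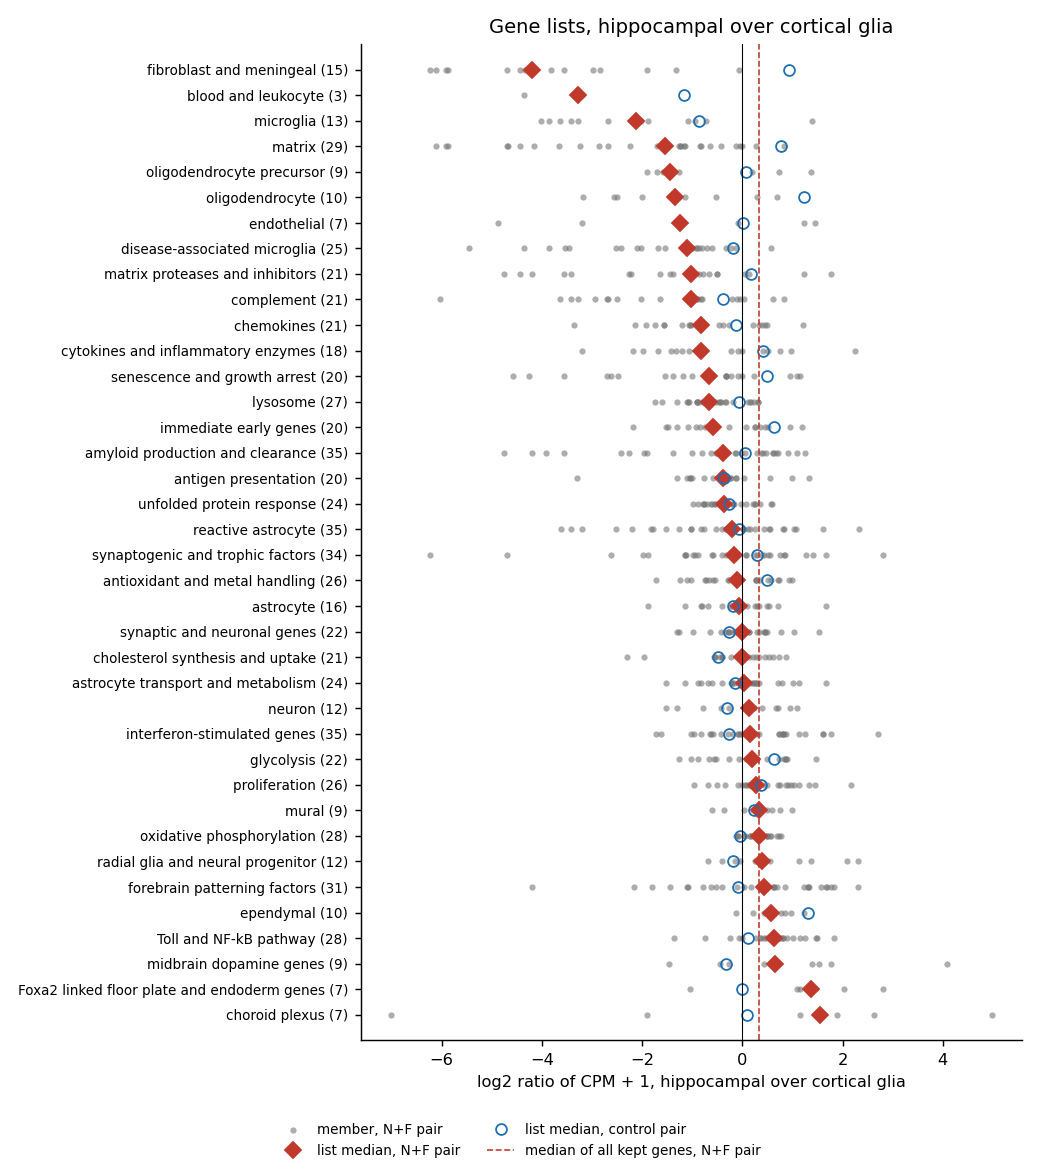
Log2 ratio of CPM + 1, hippocampal over cortical glia, for 38 gene lists, with the number of kept genes in brackets. Grey points are members in the N+F pair, red diamonds their median, open blue circles the median in the control pair, and the dashed line the all-gene median of 0.33 in the N+F pair; fibroblast and meningeal genes have the lowest median and choroid plexus genes the highest.

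Microglial and macrophage genes were lower in hippocampal N+F glia as well. Of 16 microglia markers 13 were kept, 10 lower and 1 higher, with a median of -2.13 in the N+F pair and -0.87 in the control pair. Their summed level was 187 CPM in hippocampal and 417 CPM in cortical N+F glia, and 215 CPM in hippocampal and 299 CPM in cortical control glia, and Siglech had 0 counts in all 4 libraries. Ctss, the lysosomal protease cathepsin S, had 2.76 CPM in hippocampal and 59.8 CPM in cortical N+F glia, and 9.36 CPM in hippocampal and 14.4 CPM in cortical control glia. Itgam, the integrin chain CD11b, had 3.14 CPM in hippocampal and 50.3 CPM in cortical N+F glia, and 5.89 CPM in hippocampal and 10.5 CPM in cortical control glia. Tyrobp, the adaptor of the Trem2 receptor, had 0.943 CPM in hippocampal and 27.05 CPM in cortical N+F glia, and C1qa of the complement trigger C1q had 3.22 CPM in hippocampal and 40.1 CPM in cortical N+F glia. Across Ctss, Itgam, Tyrobp and C1qa, hippocampal N+F glia were the lowest and cortical N+F glia the highest of the 4 libraries. The one higher marker was Sall1, a transcription factor, with 111 CPM in hippocampal and 41.6 CPM in cortical N+F glia, and 104 CPM in hippocampal and 120.4 CPM in cortical control glia. Sall1 was thus most of the summed 187 CPM in hippocampal N+F glia, but a small part of the 417 CPM in cortical N+F glia. Cx3cr1 and P2ry12, which mark resting microglia, were under 1 CPM in both N+F libraries.

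Genes of macrophages and of microglia in disease went the same way. Lyz2 (lysozyme) had 45.8 CPM in hippocampal and 956 CPM in cortical N+F glia, and 142 CPM in hippocampal and 310.4 CPM in cortical control glia. Mrc1 and Ms4a7, which mark border macrophages, had log2 ratios of -3.28 and -3.20, while the blood genes Hbb-bs and Hba-a1 had 0 counts in both N+F libraries. Of 25 kept genes of disease-associated microglia 15 were lower and 0 higher, with a median of -1.10. Ccl6, whose promoter is shown above, had 0.827 CPM in hippocampal and 79.2 CPM in cortical N+F glia, and 5.06 CPM in hippocampal and 11.4 CPM in cortical control glia. Gpnmb, a membrane glycoprotein of phagocytes, had 35.3 CPM in hippocampal and 400.2 CPM in cortical N+F glia, and Spp1 (osteopontin) had 355 CPM in hippocampal and 1902 CPM in cortical N+F glia. Of 27 lysosome genes 6 were lower and 0 higher, with a median of -0.66; with TMM factors 13 were lower. Ctsl and Npc2 had log2 ratios of -1.74 and -1.60. Fibroblast and macrophage markers were thus both higher in the cortical N+F library beside every inflammatory list described next, and their part in those lists was not tested.

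Secreted inflammatory factors were more often lower than higher in hippocampal N+F glia. Of 18 kept cytokine and inflammatory enzyme genes 8 were lower, 1 was higher and 9 were under 2-fold, against 7.06% of all genes lower (median -0.82). Ptgs2, the inducible cyclooxygenase, had 21.4 CPM in hippocampal and 206 CPM in cortical N+F glia, and 17.2 CPM in hippocampal and 7.25 CPM in cortical control glia. Il33, an alarmin made by glia and stroma, had 22.1 CPM in hippocampal and 61.3 CPM in cortical N+F glia. Il1a had 0.281 CPM in hippocampal and 4.82 CPM in cortical N+F glia and overlaps an exon of Gm14023, while Il1b, Tnf and Nlrp3 did not reach 1 CPM. Of 21 chemokines 10 were lower, 1 was higher and 10 were under 2-fold. Ccl9 and Ccl3 led with log2 ratios of -3.36 and -2.15, whereas Ccl2, the main monocyte attractant, had 58.7 CPM in hippocampal and 42.7 CPM in cortical N+F glia. Of 21 complement genes 11 were lower and 0 higher. C3, the central component, had 3737 CPM in hippocampal and 4301 CPM in cortical N+F glia.

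The receptors and kinases upstream did not share that order. Of 28 Toll and NF-kB genes 6 were higher and 1 lower, a share of higher genes close to the 17.3% of all genes (3 and 2 with TMM factors), and the median of 0.63 lay above the all-gene median. Tlr1 had 29.8 CPM in hippocampal and 7.61 CPM in cortical N+F glia, Tlr4 had 29.2 CPM in hippocampal and 11.6 CPM in cortical N+F glia, and Nfkb1, the p105 and p50 subunit, had 91.6 CPM in hippocampal and 32.2 CPM in cortical N+F glia. The exception was Tlr7, with 0.182 CPM in hippocampal and 2.04 CPM in cortical N+F glia. Of 35 interferon-stimulated genes 6 were higher and 3 lower, shares near those of all genes, and 5 and 5 with TMM factors. Their median of 0.15 turned to -0.17 with TMM factors. Cmpk2 and Ifit1 were higher, with log2 ratios of 2.71 and 1.77, and Ifitm1 and Zbp1 were lower, with -1.73 and -1.61. Antigen presentation genes had 6 lower and 1 higher of 20. Cd80, the costimulatory ligand, had 5.01 CPM in hippocampal and 57.9 CPM in cortical N+F glia, and 2.44 CPM in hippocampal and 0.873 CPM in cortical control glia, and B2m, the light chain of class I molecules, had 770.3 CPM in hippocampal and 1549 CPM in cortical N+F glia.

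Most astrocyte markers differed by less than 2-fold between the N+F libraries. Of 16 markers 2 were lower, 1 was higher and 13 were under 2-fold, with a median of -0.06, below that of all genes; with TMM factors 5 were lower and 1 higher, with a median of -0.32. Aqp4, the water channel of astrocyte endfeet, had 1141 CPM in hippocampal and 899.7 CPM in cortical N+F glia. Gfap, the astrocyte intermediate filament, had 1667 CPM in hippocampal and 2957 CPM in cortical N+F glia, and 2625 CPM in hippocampal and 1828 CPM in cortical control glia, which is the opposite order. Glul, the glutamine synthetase of astrocytes, was the higher one, with 1158 CPM in hippocampal and 366 CPM in cortical N+F glia, although in the control pair cortical glia had more, with 1518 CPM in hippocampal and 3060.0 CPM in cortical control glia; Mir8114 overlaps a Glul exon. S100b and Atp1b2 were lower, with log2 ratios of -1.89 and -1.14. Of 35 reactive astrocyte genes 11 were lower and 4 higher (13 and 2 with TMM factors), with a median of -0.21. Serpina3n, an acute phase protease inhibitor, had 474 CPM in hippocampal and 2197 CPM in cortical N+F glia, and 1316 CPM in hippocampal and 1403 CPM in cortical control glia. Lcn2 (lipocalin 2), among the most abundant transcripts, had 3794 CPM in hippocampal and 9155 CPM in cortical N+F glia, and 7535 CPM in hippocampal and 7136 CPM in cortical control glia. Tm4sf1 went the other way, with 276 CPM in hippocampal and 54.3 CPM in cortical N+F glia. For Serpina3n and Lcn2 the control libraries were near equal, and the hippocampal N+F library lay below both.

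Some progenitor and dorsal forebrain genes were higher in hippocampal N+F glia. Of 12 radial glia genes 4 were higher and 0 lower (3 and 1 with TMM factors), with a median of 0.39, close to that of all genes. Pax6, a transcription factor of cortical radial glia, had 68.7 CPM in hippocampal and 12.99 CPM in cortical N+F glia, and 48.3 CPM in hippocampal and 60.7 CPM in cortical control glia. Hes1, a Notch target, had 24.1 CPM in hippocampal and 4.92 CPM in cortical N+F glia, and Nes (nestin) had 435 CPM in hippocampal and 167 CPM in cortical N+F glia. For Pax6 the cortical N+F library was again the low one of 4. Of 31 forebrain patterning factors 10 were higher and 6 lower (9 and 7 with TMM factors), with a median of 0.43. Meis2 and Otx1 had log2 ratios of 1.67 and 1.57. Nr2f2 (COUP-TFII) and Zbtb20, a factor needed for hippocampal identity in the embryo, were lower, with 9.23 CPM in hippocampal and 45.05 CPM in cortical N+F glia and with 46.5 CPM in hippocampal and 128 CPM in cortical N+F glia. Zbtb20 had the opposite order in the control pair, with 36.6 CPM in hippocampal and 8.58 CPM in cortical control glia, and Mir568 overlaps its exons. Of 26 proliferation genes 5 were higher and 0 lower, a share near the 17.3% of all genes (3 and 1 with TMM factors), and the median of 0.28 turned to -0.01 with TMM factors. Ccnd1 (cyclin D1) had 1448 CPM in hippocampal and 323 CPM in cortical N+F glia, and 1062 CPM in hippocampal and 917 CPM in cortical control glia, and Mki67 had 26.5 CPM in hippocampal and 15.8 CPM in cortical N+F glia. Of 20 senescence and growth arrest genes 10 were lower and 2 higher (10 and 0 with TMM factors), led by the IGF-binding genes Igfbp4, with 40.2 CPM in hippocampal and 988 CPM in cortical N+F glia, and Igfbp6, with 1.32 CPM in hippocampal and 43.5 CPM in cortical N+F glia. Cdkn1a (p21) had 595 CPM in hippocampal and 1347 CPM in cortical N+F glia, and 843 CPM in hippocampal and 183 CPM in cortical control glia.

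Most myelin genes were lower in hippocampal N+F glia. Of 10 kept oligodendrocyte genes 7 were lower and 0 higher, with a median of -1.35, against 1.23 in the control pair. Mbp (myelin basic protein) had 31.1 CPM in hippocampal and 179.5 CPM in cortical N+F glia, and 59.7 CPM in hippocampal and 0.873 CPM in cortical control glia, so the cortical library was the higher of the N+F pair and nearly empty in the control pair. Of 9 kept precursor genes 6 were lower and 1 higher. Pdgfra, shared with fibroblasts, had 17.8 CPM in hippocampal and 69.1 CPM in cortical N+F glia, while Olig2, the lineage factor, had 33.95 CPM in hippocampal and 12.5 CPM in cortical N+F glia. Of 34 trophic and synaptogenic genes 8 were lower and 4 higher, a share of higher genes below that of all genes, and with TMM factors 11 were lower and 3 higher. Thbs2, a thrombospondin, had 66.1 CPM in hippocampal and 1749 CPM in cortical N+F glia, whereas Bmp4 and Tgfb3 had log2 ratios of 1.68 and 1.41. Among neuronal genes Scn2a, a sodium channel subunit, and Npvf, a neuropeptide precursor, changed order between the pairs. Scn2a had 5.39 CPM in hippocampal and 0.485 CPM in cortical N+F glia, and 0.241 CPM in hippocampal and 7.86 CPM in cortical control glia, and Npvf had 123 CPM in hippocampal and 13.9 CPM in cortical N+F glia, and 17.7 CPM in hippocampal and 66.5 CPM in cortical control glia.

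Of 35 genes of amyloid production and clearance 10 were lower and 2 higher, against 7.06% and 17.3% of all genes, with a median of -0.38. App, the precursor itself, had 981 CPM in hippocampal and 1280.3 CPM in cortical N+F glia, the secretase gene Bace1 had 93.3 CPM in hippocampal and 90.5 CPM in cortical N+F glia, and the degrading enzymes Mme (neprilysin) and Ide had log2 ratios of 0.71 and 0.68, all under 2-fold. The lower genes were led by Mmp2 and Mmp9, given above, and by Msr1, a macrophage scavenger receptor, with 1.21 CPM in hippocampal and 32.3 CPM in cortical N+F glia. Bace2 and Aplp2 were the higher ones, with log2 ratios of 1.25 and 1.10, and with TMM factors 0 genes of the list were higher.

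Choroid plexus genes had the highest median of the 38 plotted lists, 1.55, but on 7 kept genes of 13. Their median was 0.08 in the control pair and 2.86 in the untreated pair. The higher median in hippocampal glia was thus not particular to N+F. In the untreated pair the list summed to 5909 CPM in hippocampal and 896 CPM in cortical glia. In the N+F pair the sums were near equal, at 478 CPM in hippocampal and 447 CPM in cortical glia. F5 is on this list, Kcnj13 had 312 counts (5.16 CPM) in hippocampal and 0 in cortical N+F glia, at least 135-fold higher, and Clic6 had 4.32 CPM in hippocampal and 0.434 CPM in cortical N+F glia. Exons of Kcnj13 overlap those of Gigyf2. The defining choroid plexus transcript Ttr had 10 counts in hippocampal and 0 in cortical N+F glia. Aqp1, the water channel of that epithelium and of other cells, was among the lowest ratios of all, with 2.13 CPM in hippocampal and 405 CPM in cortical N+F glia, and 1.93 CPM in hippocampal and 0.626 CPM in cortical control glia. Enpp2, the gene of autotaxin, was the other lower member, with 6.19 CPM in hippocampal and 25.8 CPM in cortical N+F glia. In the untreated pair Aqp1 and Enpp2 were instead higher in hippocampal glia, with log2 ratios of 2.81 and 1.84. Keeping genes of 10 CPM or more in either library left F5, Enpp2 and Aqp1, and the median was then that of Enpp2, -1.90. Ependymal genes had 1 higher and 0 lower of 10 (0 and 0 with TMM factors), with a median of 0.57, against 1.32 in the control pair, and Foxj1, the master factor of motile cilia, had 308 CPM in hippocampal and 227 CPM in cortical N+F glia, and 571 CPM in hippocampal and 218 CPM in cortical control glia.

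Most genes that differed between the regions with N+F were under 2-fold with the control lentivirus. The N+F and the control pair share no library. Of the 2455 genes higher in hippocampal N+F glia, 74 were also at least 2-fold higher in hippocampal control glia, 78 were at least 2-fold lower there and 2303 were under 2-fold. Of the 999 lower genes, 52 were also lower in the control pair, 102 were higher there and 845 were under 2-fold. Of all 14158 genes, 3.97% were higher and 1.93% lower in the control pair. Among the lower genes, both the same-way and the opposite-way counts were above these shares. Among the higher genes, only the opposite-way count was. Across the 14158 genes the log2 ratios of the pairs had a Pearson correlation of -0.13 and a Spearman correlation of -0.17, given as a description of 4 libraries, since genes are not independent replicates.

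**Figure D4:**
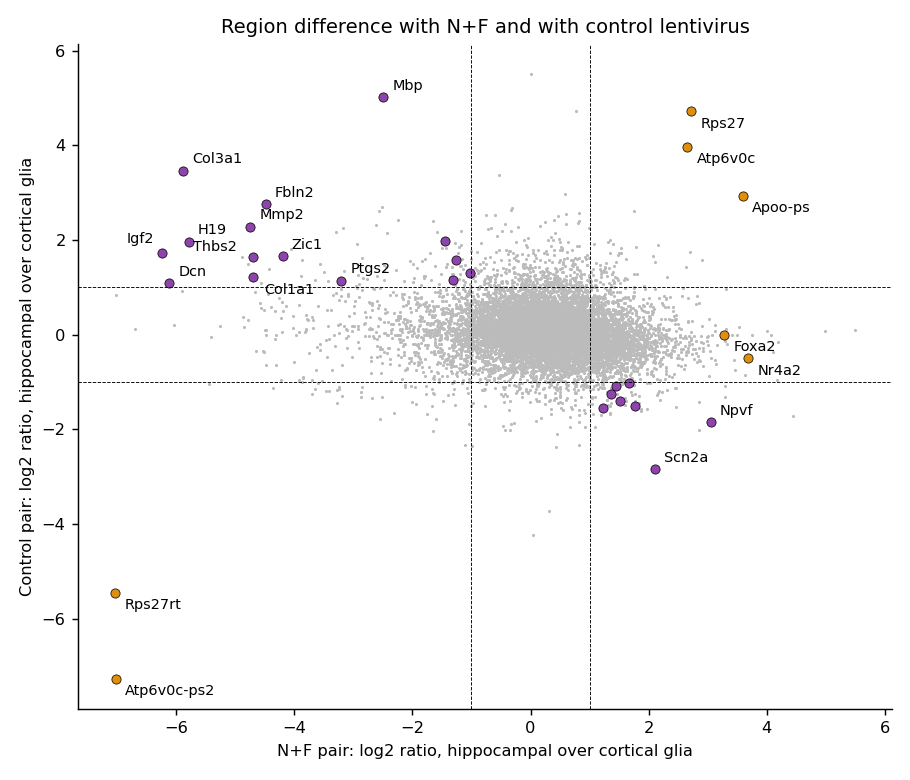
Log2 ratio of CPM + 1, hippocampal over cortical glia, of 14158 genes in the N+F pair (x axis) and the control pair (y axis), 1 library a group; dashed lines mark 2-fold. Purple points are the 23 genes described in the text that were past 2-fold in opposite directions, with names where the N+F ratio was over 4-fold, such as Col3a1 at the upper left and Scn2a at the lower right, and orange points are the delivered genes and gene copies with their parents.

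A test of region was possible only over both conditions with amyloid beta. An edgeR quasi-likelihood fit with region and condition on these 4 libraries had 1 residual degree of freedom. It took its spread from how far the 2 region differences disagree, in each gene and pooled across genes. It tested the difference averaged over N+F and control, not that of N+F alone. Of 15600 genes, 0 were called higher (0.00%) and 2 lower (0.0128%) in hippocampal glia at a Benjamini-Hochberg adjusted p of 0.05, and 321 had an unadjusted p under that value. DESeq2 called 12 higher and 40 lower on the same libraries. The 2 genes called by edgeR were Atp6v0c-ps2, lower by a log2 fold change of -13.22 ± 0.60 (SE, adjusted p = 0.000445), and Rps27rt, at -7.60 ± 0.58 (adjusted p = 0.0114). Foxa2 had 3.03 ± 0.59 and Nr4a2 1.42 ± 0.96, each with an edgeR adjusted p of 1.00. The spread of Col3a1 was wide, at -1.16 ± 4.69 (adjusted p = 1.00), since its 2 region differences had opposite signs.

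Both called genes are near-identical copies of other genes, and their parents lean the other way. The coding sequence of Rps27, a ribosomal protein gene (GENCODE annotation, GRCm38, chr3:90212522-90213651, minus strand), equals that of Rps27rt on chromosome 9 in 255 of 255 bases, and it is printed to show that reads within it cannot tell the genes apart.
Rps27 and Rps27rt: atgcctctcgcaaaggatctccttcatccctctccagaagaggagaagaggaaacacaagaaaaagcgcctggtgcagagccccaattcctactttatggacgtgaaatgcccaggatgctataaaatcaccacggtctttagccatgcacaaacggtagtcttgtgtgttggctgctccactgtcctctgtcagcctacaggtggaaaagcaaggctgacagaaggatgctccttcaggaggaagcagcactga
Rps27rt had 0.926 CPM in hippocampal and 251 CPM in cortical N+F glia, and 0.642 CPM in hippocampal and 70.98 CPM in cortical control glia. Its parent Rps27 had the reverse, 104 CPM in hippocampal and 14.9 CPM in cortical N+F glia, and 87.4 CPM in hippocampal and 2.36 CPM in cortical control glia. The sum of both genes was 105 CPM in hippocampal and 266 CPM in cortical N+F glia, and 88.0 CPM in hippocampal and 73.3 CPM in cortical control glia. Atp6v0c-ps2, a processed pseudogene that matches 464 of 465 aligned bases of the proton pump subunit gene Atp6v0c, had 1 count in hippocampal glia and 131 CPM in cortical N+F glia. Atp6v0c had 126 CPM in hippocampal and 19.1 CPM in cortical N+F glia, and the sum of the pair was 126 CPM in hippocampal and 151 CPM in cortical N+F glia. With each copy added to its parent, edgeR called 0 genes in either direction, with 315 at an unadjusted p under 0.05, a step chosen after seeing the data. Sap18b and Apoo-ps, which were among the 12 leading genes of the pair, match their parents in 519 of 519 and 586 of 586 aligned bases. Sap18b had 0.695 CPM in hippocampal and 175 CPM in cortical N+F glia, while Sap18 had 329.6 CPM in hippocampal and 40.1 CPM in cortical N+F glia. Apoo-ps had 21.1 CPM in hippocampal and 0.818 CPM in cortical N+F glia, while Apoo had 21.5 CPM in hippocampal and 34.9 CPM in cortical N+F glia. For all 4 copies the level of copy and parent together was more even than that of the copy alone, so their ratios are uncertain.

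**Figure D5:**
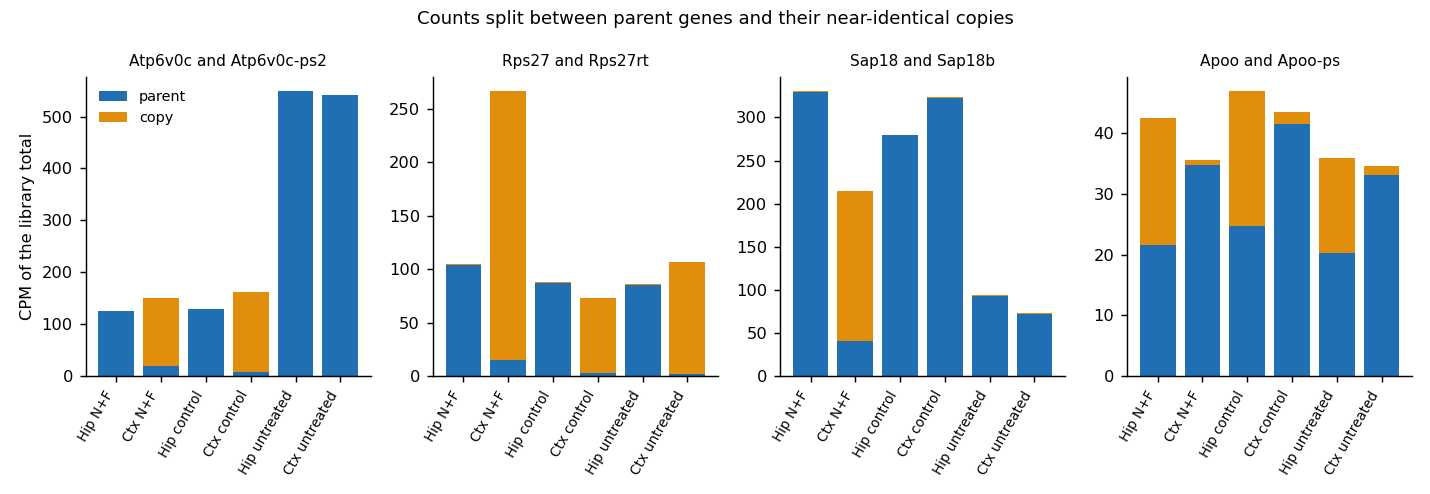
Stacked levels (CPM of the library total) of 4 parent genes (blue) and their near-identical copies (orange) in the 6 cultured libraries, 1 library a bar, hippocampal (Hip) left of cortical (Ctx). The cortical N+F bar is mostly copy for Atp6v0c, Rps27 and Sap18, while the hippocampal N+F bar is almost all parent for these 3 genes.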

How the data were processed

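RNA was extracted with Trizol and made into libraries with the SMARTER mRNA-Seq kit, per the labels' protocols. The submitters' processing notes name TopHat, HISAT2 and edgeR with no version. They also name the human build hg19, but the symbols are those of mouse, so no coordinates are given for the counts. The deposited values are raw counts per gene symbol, not normalized, and whether counting was by strand is not stated in the labels. The culture table had 36780 lines for 24542 symbols, of which 6489 had several lines, and 24450 symbols matched the mouse annotation. If a read was counted in several lines of a symbol, sums overstate that symbol's level. Each column matched 1 sample title.

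CPM, log2 ratios of CPM + 1 and list medians were computed in Python 3.11.15 with pandas 2.3.3. Counting intervals are 95% exact Poisson. The region fit used edgeR 4.0.16 in R 4.3.3 (filterByExpr, TMM, quasi-likelihood test, Benjamini-Hochberg adjustment over 15600 genes), with DESeq2 1.42.0 as an alternative. It was also run on simulated counts with less spread than these libraries and the same region effect in both conditions. That run therefore does not measure the power of the fit on these data. Replicates were absent, so the error of the region fit came from how far the 2 region differences disagree. edgeR pools this error across genes, so that of 1 gene rests in part on all others. The SE given is the size of the log2 fold change divided by the square root of the F statistic. The p-values of the fit set the average region difference against the pooled error. Promoters came from RefSeq (GRCm38.p6), and transcript lengths, known for 13751 genes (97.1%), and exon overlaps from GENCODE on GRCm38.

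Named genes were the delivered genes and their relatives, the 12 largest ratios per direction, the 6 per direction whose ratio differed most from the control pair, up to 4 different members of each list per direction, and the 6 smallest p per direction of the region fit. Some genes that this rule selects are not reported here. Members of a list under 2-fold are named as contrast and were chosen after their values were seen. The comparison and the lists were chosen with earlier results of these data known.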

Additional observations from a re-analysis of the deposited data

Results flagged for a closer look

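For 33 of the genes that the naming rule selects, the hippocampal library was at least 2-fold higher in one pair with amyloid beta and at least 2-fold lower in the other. The 23 described in the text are given here. With 1 library a group, the difference between the pairs was not tested. Genes lower in hippocampal N+F glia but higher in hippocampal control glia had these log2 ratios in the N+F pair and the control pair: the receptor gene Nr4a1 -1.31 and 1.16, the growth factor gene Igf2 -6.24 and 1.72, the proteoglycan gene Dcn -6.12 and 1.10, the collagen gene Col3a1 -5.88 and 3.47, the noncoding RNA H19 -5.79 and 1.97, the myelin gene Mbp -2.49 and 5.02, and the matrix gene Fbln2 -4.48 and 2.75. The same order held for the collagen gene Col1a1 with -4.70 and 1.21, the gelatinase gene Mmp2 with -4.75 and 2.29, the thrombospondin gene Thbs2 with -4.70 and 1.64, and the transcription factor genes Zic1 with -4.20 and 1.66 and Zbtb20 with -1.45 and 1.97. It also held for the cyclooxygenase gene Ptgs2 with -3.21 and 1.14 and the glycolysis genes Slc2a3 with -1.26 and 1.58 and Pfkfb3 with -1.02 and 1.30. Genes with the opposite order were the sodium channel gene Scn2a, with 2.11 in the N+F and -2.84 in the control pair, and the neuropeptide gene Npvf, with 3.05 and -1.85. Further genes of this kind were Aldh1a1 with 1.77 and -1.50, Ret with 1.52 and -1.40, Spon1 with 1.44 and -1.08, Glul with 1.66 and -1.01, Olig2 with 1.37 and -1.26, and the inhibitor gene Timp4 with 1.22 and -1.55. In Igf2, Dcn, Col3a1, H19 and Fbln2 the cortical N+F library was the highest of the 4 and the cortical control library the lowest.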

How the results depend on the processing

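The 2455 higher and 999 lower genes of the N+F pair became 1347 and 564 with a pseudocount of 5 CPM, 1428 and 1500 with TMM factors, 1342 and 1583 with DESeq2 size factors, and 734 and 482 at a 3-fold threshold, while a filter of 10 CPM left 640 lower genes. Of 171 named genes past 2-fold, 153 stayed past it in the same direction with TMM factors, 152 with DESeq2 size factors, 132 with a pseudocount of 5 CPM and 110 at 3-fold, with 0 reversed. The choroid plexus median became -1.90 with the 10 CPM filter, the value of Enpp2, since F5, Enpp2 and Aqp1 were the members left. Adding copies to their parents, chosen after seeing the data, reversed Atp6v0c to -0.26 and Rps27 to -1.34. List medians near 0 took the other sign in 6 lists with TMM factors and 8 with DESeq2 size factors. For the region fit, 0 higher and 2 lower genes became 12 and 40 with DESeq2 (592 at an unadjusted p under 0.05), 1 and 1 with the top line per symbol, and 0 lower with all 6 libraries (edgeR, 384 at an unadjusted p under 0.05), with the untreated and N+F pairs (315), with the untreated and control pairs (795) and with copies added (315). No paired analysis was possible because each culture group had 1 library, and leaving a library out would remove a group. Depth did not limit genes above 1 CPM, but folds of genes with few counts carry wide counting intervals.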

Other observations

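Other gene groups of the N+F pair, chosen after their values were seen, also stood apart from the all-gene median of 0.33. The 77 kept genes of cytosolic ribosomal proteins had a median log2 ratio of -0.74 in the N+F pair and 0.13 in the control pair, and took 1.61% of counts in hippocampal and 2.72% in cortical N+F glia, and 1.39% in hippocampal and 1.26% in cortical control glia. The inducible heat shock genes Hspa1a and Hspa1b, which match in 1918 of 1926 coding bases and were therefore summed, had 40.8 CPM in hippocampal and 984 CPM in cortical N+F glia, and 34.7 CPM in hippocampal and 45.0 CPM in cortical control glia. Other chaperone genes did not share this order. Hsph1 had 141 CPM in hippocampal and 51.3 CPM in cortical N+F glia, and Hspa8 had 999 CPM in hippocampal and 862 CPM in cortical N+F glia.

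Few metabolic genes passed 2-fold between the N+F libraries. Of 28 oxidative phosphorylation genes 0 were at least 2-fold higher and 0 lower, with a median of 0.34, close to that of all genes. Of 24 unfolded protein response genes 0 passed 2-fold in either direction, with a median of -0.36, below that of all genes, and with TMM factors 5 were lower (median -0.68). The chaperone gene Hspa5 had 569 CPM in hippocampal and 1132 CPM in cortical N+F glia. Of 21 cholesterol genes 2 were lower, among them the sterol sensor Insig1, with 20.9 CPM in hippocampal and 107 CPM in cortical N+F glia. For Insig1 the control pair had the same order, with a log2 ratio of -1.66. Of 22 glycolysis genes 1 was higher and 2 lower, Pdk1 at a log2 ratio of 1.47 and Slc2a3 and Pfkfb3 at -1.26 and -1.02. Of 26 antioxidant and metal-handling genes 4 were lower and 0 higher (6 and 0 with TMM factors), led by the ferritin light chain Ftl1, with 1145 CPM in hippocampal and 3789.9 CPM in cortical N+F glia. Of 20 kept immediate early genes 5 were lower and 1 higher (8 and 0 with TMM factors), and Fos had 23.1 CPM in hippocampal and 108 CPM in cortical N+F glia, and 21.6 CPM in hippocampal and 19.7 CPM in cortical control glia.

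Of the 6 genes per direction with the smallest p in the region fit, Vit, Nps and Ppp1r3c were higher and Insig1, Zfp965, Epyc and Ptgs1 lower in hippocampal glia besides the gene copies, each with an edgeR adjusted p of 1.00. Nps, the precursor of neuropeptide S, had 82.6 CPM in hippocampal and 6.26 CPM in cortical N+F glia, and 0.120 CPM in hippocampal and 0 CPM in cortical control glia. Ppp1r3c, a subunit that targets a phosphatase to glycogen, had 140.3 CPM in hippocampal and 32.5 CPM in cortical N+F glia, and 268 CPM in hippocampal and 83.3 CPM in cortical control glia. Ptgs1, the constitutive cyclooxygenase, had 7.13 CPM in hippocampal and 46.4 CPM in cortical N+F glia, and 3.60 CPM in hippocampal and 14.8 CPM in cortical control glia. Epyc, a small proteoglycan of cartilage, had 0.232 CPM in hippocampal and 23.6 CPM in cortical N+F glia and 0 counts in both control libraries.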
